A study of Mus musculus with 4 samples.

Results

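H3K27me2 peaks that lay within an intron after the first of their annotated transcript were examined in the parental genomes of mouse zygotes. They were chosen from 4 peak lists by the annotation of each peak, and numbered 1211 of 5744 peaks in the Ezh2m+/p+ maternal list, 2068 of 9606 in the Ezh2m-/p+ maternal list, 3307 of 17863 in the Ezh2m+/p+ paternal list and 4073 of 22823 in the Ezh2m-/p+ paternal list, or 10659 of 56036 in all. No fold or length of a peak entered this rule, which was set with earlier results of these data known. Eggs of C57BL/6J females were fertilized in vitro by PWK/PhJ sperm, and PN5 zygotes without polar bodies were collected. In both groups the mothers carried the floxed Ezh2 alleles; Gdf9-Cre, a transgene active in growing oocytes that deletes a floxed exon, was present in the mothers of Ezh2m-/p+ zygotes, whereas those of Ezh2m+/p+ zygotes had no Cre. The paternal Ezh2 allele was intact in both. Each genotype had 1 H3K27me2 library and 1 input library made without antibody, from pooled zygotes, so differences between genotypes stand without replicates and are given without p-values. The peak lists hold no read counts, so the depth behind each peak is not known here; the study's summary of its libraries lists fewer reads for Ezh2m-/p+ than for Ezh2m+/p+, in the H3K27me2 library as in the input. Yet in the authors' table of coverage, which does not name the library, reads covered a median over autosomes of 25.0% of a chromosome in the Ezh2m+/p+ maternal, 35.8% in the Ezh2m-/p+ maternal, 2.22% in the Ezh2m+/p+ paternal and 3.20% in the Ezh2m-/p+ paternal genome. The autosomes of the paternal genome, at 1.10 to 5.47%, thus lay far below those of the maternal genome, at 16.9 to 45.1%, and the Ezh2m-/p+ medians above the Ezh2m+/p+ medians, and the part of this coverage in each difference below between parental genomes or genotypes was not tested. The names of the lists and the study's peak totals give the genotypes one way round, whereas its charts of peak annotation give them the other way, so every direction between genotypes below rests on the names of the lists.

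H3K27me2 is the dimethylated form of lysine 27 of histone H3. PRC2, the polycomb complex with EZH1 or EZH2 as its catalytic subunit, places it and can extend it to H3K27me3, the mark of facultative heterochromatin; EHMT1 and EHMT2 are further methyltransferases known to act on this residue. In many cell types H3K27me2 is found over broad intergenic and intronic stretches. Later introns hold much of the length of long genes, among them genes for cell adhesion and signalling in neurons, so they offer wide non-coding stretches far from promoters. Each peak is described by its position, its length and its fold, which is the ratio of H3K27me2 to input reads that the authors' peak caller gave for that parental genome.

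The sequences below are those at the centre of the later-intron peak of largest fold in each list. They are given together with the stretch at which maternal and paternal peaks overlapped in Adk, the gene of adenosine kinase. They were read from the GRCm38 (mm10) reference, which is of the C57BL/6J strain, so PWK variants of the paternal genome are not in them. Capitals mark CpG dinucleotides, the sites of DNA methylation that are dense in the CpG islands to which PRC2 is known to be recruited.
Nufip2 intron 3 of 3, Ezh2m+/p+ maternal, chr11:77731451-77731750, plus strand: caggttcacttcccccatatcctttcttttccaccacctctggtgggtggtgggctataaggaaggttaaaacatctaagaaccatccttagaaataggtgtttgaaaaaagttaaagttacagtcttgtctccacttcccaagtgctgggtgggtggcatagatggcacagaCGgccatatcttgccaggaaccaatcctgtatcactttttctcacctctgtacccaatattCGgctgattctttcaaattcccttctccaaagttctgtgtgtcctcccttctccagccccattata
Olfml2b intron 3 of 7, Ezh2m-/p+ maternal, chr1:170658251-170658550, plus strand: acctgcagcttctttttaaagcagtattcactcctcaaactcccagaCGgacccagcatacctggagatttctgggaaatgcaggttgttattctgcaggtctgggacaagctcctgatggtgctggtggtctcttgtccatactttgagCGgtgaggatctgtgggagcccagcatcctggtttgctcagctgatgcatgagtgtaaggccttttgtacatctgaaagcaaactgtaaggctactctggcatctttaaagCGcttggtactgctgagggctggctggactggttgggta
Spata17 intron 5 of 10, Ezh2m+/p+ paternal, chr1:187156251-187156550, plus strand: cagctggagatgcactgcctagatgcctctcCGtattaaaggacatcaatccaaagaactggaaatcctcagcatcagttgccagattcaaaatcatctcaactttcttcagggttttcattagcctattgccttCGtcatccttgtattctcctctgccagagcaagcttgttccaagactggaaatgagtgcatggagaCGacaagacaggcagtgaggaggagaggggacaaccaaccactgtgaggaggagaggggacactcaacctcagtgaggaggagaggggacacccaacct
Rabgap1l intron 13 of 20, Ezh2m-/p+ paternal, chr1:160524551-160524850, plus strand: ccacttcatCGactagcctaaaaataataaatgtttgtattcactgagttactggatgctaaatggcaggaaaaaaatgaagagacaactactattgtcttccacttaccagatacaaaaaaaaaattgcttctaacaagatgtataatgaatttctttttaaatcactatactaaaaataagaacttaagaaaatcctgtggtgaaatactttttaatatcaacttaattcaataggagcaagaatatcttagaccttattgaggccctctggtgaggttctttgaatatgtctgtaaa
Adk intron 10 of 10, Ezh2m-/p+ maternal and paternal, chr14:21440451-21440750, plus strand: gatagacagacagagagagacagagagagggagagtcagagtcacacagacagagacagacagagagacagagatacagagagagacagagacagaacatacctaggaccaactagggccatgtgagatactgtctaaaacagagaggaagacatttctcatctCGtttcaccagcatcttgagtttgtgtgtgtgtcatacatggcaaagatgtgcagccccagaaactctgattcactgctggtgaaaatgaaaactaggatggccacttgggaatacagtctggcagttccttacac
The stretches held 2, 3, 3, 1 and 1 CpG in 300 bases, in this order. None was rich in CpG. Over all later-intron peaks, the central 300 bases held a median of 2, 3, 2 and 2 CpG in the Ezh2m+/p+ maternal, Ezh2m-/p+ maternal, Ezh2m+/p+ paternal and Ezh2m-/p+ paternal lists, and no CpG in 11.7%, 12.2%, 13.9% and 15.9% of the peaks.

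The peak in intron 3 of Nufip2, which encodes an RNA-binding protein, lay at chr11:77728401-77734799 with a fold of 93.8 and overlapped no peak of the other lists. Its nearest annotated start site belonged to another gene, Cryba1. In Olfml2b, an olfactomedin family gene, the peak at chr1:170655401-170661399 had a fold of 108 and was likewise listed only in the Ezh2m-/p+ maternal genome among these 4 lists. The paternal maxima recurred: the peak in Spata17, a gene named for its expression in testis, at chr1:187151401-187161399 with a fold of 433, and that in Rabgap1l, a Rab GTPase-activating protein gene, at chr1:160521001-160528399 with a fold of 481, each overlapped a peak of the other genotype. Of the 6 maternal peaks with the 3 largest folds of each list, in Nufip2, Osbpl8, Gm14280, Olfml2b, Pebp4 and Adamts2, none overlapped the other maternal list, beside 9.47% of all Ezh2m+/p+ and 5.78% of all Ezh2m-/p+ maternal peaks. All 6 paternal ones overlapped, beside 66.1% and 45.7% of all paternal peaks, namely the peaks in Spata17, Prkce, Atrn and Rabgap1l and a pair in Rasal2.

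Before the values, the label itself was checked against the GENCODE vM21 annotation. The named transcript was found for every peak, and between 99.7% and 99.9% of the later-intron peaks in each list lay inside the intron they were annotated to. An exon of any transcript was touched by 4, 3, 5 and 9 peaks of the Ezh2m+/p+ maternal, Ezh2m-/p+ maternal, Ezh2m+/p+ paternal and Ezh2m-/p+ paternal lists. An intron number depends on the transcript chosen, however: 221, 399, 663 and 789 peaks (18.2%, 19.3%, 20.05% and 19.4%) also lay within a first intron of some other transcript, in most cases of the same gene (17.3%, 17.6%, 17.8% and 17.3% of the peaks). The gene with the nearest start site, which the lists name in a column of its own, was not the host gene for 26.1%, 28.7%, 27.003% and 27.1% of the peaks. Host genes were therefore taken from the intron annotation.

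Later-intron peaks made up 21.1% of the Ezh2m+/p+ maternal list (95% Wilson interval 20.05 to 22.2%), 21.5% of the Ezh2m-/p+ maternal list (20.7 to 22.4%), 18.5% of the Ezh2m+/p+ paternal list (17.95 to 19.1%) and 17.8% of the Ezh2m-/p+ paternal list (17.4 to 18.3%). The intervals of the maternal lists did not overlap those of the paternal lists, while between genotypes they overlapped in either parental genome. These intervals, here and below, cover the counting of peaks within 1 library and not variation between zygote collections. They take peaks as independent, which neighbouring peaks are not, so they can be too narrow. As a share of covered base pairs the values were 20.7%, 20.2%, 15.7% and 14.4%, and the peaks covered 3.74, 4.87, 6.70 and 9.59 Mb.

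In length, later-intron peaks had medians of 2999, 1999, 1599 and 1799 bp in the Ezh2m+/p+ maternal, Ezh2m-/p+ maternal, Ezh2m+/p+ paternal and Ezh2m-/p+ paternal lists. Peaks in first introns had medians of 2999, 2199, 1599 and 1999 bp. The longest later-intron peak was 31199 bp, in intron 4 of Pax7, the paired-box transcription factor of muscle satellite cells and neural crest (chr4:139789001-139820199, Ezh2m-/p+ paternal, fold 11.8), and overlapped 5 peaks of the Ezh2m+/p+ paternal list. The longest of the Ezh2m+/p+ paternal list measured 20399 bp, in intron 4 of Igsf21, an immunoglobulin superfamily gene (chr4:140041801-140062199, fold 12.1). The longest maternal ones measured 9599 bp in Mapre2, a microtubule end-binding protein gene, and 10599 bp in Sorcs2, a sortilin-related receptor gene. Peaks of 10 kb or more numbered 0, 1, 9 and 41.

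The median fold was 7.71 in the Ezh2m+/p+ maternal, 23.7 in the Ezh2m-/p+ maternal, 36.1 in the Ezh2m+/p+ paternal and 17.7 in the Ezh2m-/p+ paternal list, beside 7.37, 23.7, 36.1 and 15.8 over all peaks of each list. The fold ran in steps: later-intron peaks took only 110, 140, 141 and 239 different values, and in the Ezh2m+/p+ paternal list 728 of 3307 peaks (22.01%) shared the value 36.1. The Ezh2m+/p+ paternal peaks of Ptprd, a gene described below, included folds of 36.1, 48.1, 60.2 and 72.2. A fold is thus a coarse measure here. A high fold need not rest on many reads, whose number the lists do not give.

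The median intron number was 4 in all 4 lists, with an upper quartile of 7 in the Ezh2m-/p+ maternal list and 8 in the others, in transcripts with a median of 10 to 12 introns. Intron 2 held 30.6% of the Ezh2m+/p+ maternal, 29.3% of the Ezh2m-/p+ maternal, 29.0% of the Ezh2m+/p+ paternal and 28.5% of the Ezh2m-/p+ paternal later-intron peaks. In the annotation, intron 2 holds 25.9% of later-intron sequence, and that value lay below all 4 Wilson intervals. The sequence was counted over the longest transcript of each of 24533 genes with more than 1 intron. Peaks were numbered by the transcript of their own annotation, so the numberings can differ for the same base. The part of this in the difference was not tested. Introns beyond the twentieth held 4.21%, 4.45%, 3.78% and 4.08% of the peaks, beside 6.93% of later-intron sequence, which lay above all 4 intervals. Short introns leave little room for a peak that touches no exon. The median intron beyond the twentieth is 1.05 kb long, against 1.84 kb for intron 2. These shares of sequence were not limited to introns with room for a peak, and the part of intron length was not tested. Introns 4 and 5 held 21.2% (19.5 to 23.0%) of the Ezh2m-/p+ maternal peaks but 15.9% (13.9 to 18.02%) of the Ezh2m+/p+ maternal ones, beside 17.6% of the sequence. This difference was not tested. Peaks of 1 gene fell together in it: 12 of the 21 Ezh2m-/p+ maternal peaks of Immp2l lay in intron 4. Introns 2 and 3 together held 48.7%, 45.1%, 46.3% and 45.1% of the peaks, and 41.8% of the sequence.

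**Figure D1:**
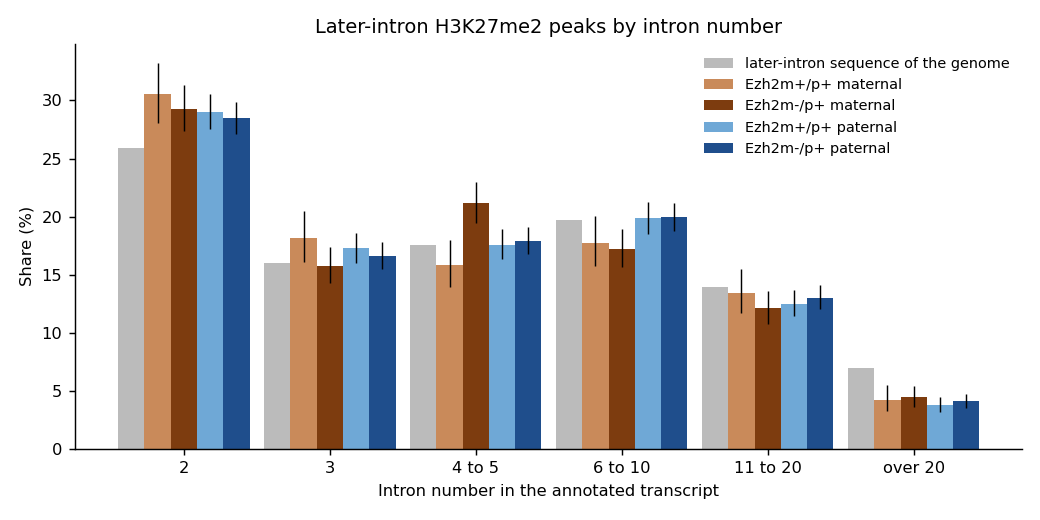
Share of later-intron H3K27me2 peaks (%, y axis) by intron number (x axis) in the 4 lists, with 95% Wilson intervals as bars, beside the share of later-intron sequence in the annotation (grey). Intron 2 stands above the sequence share in each list (28.5 to 30.6% against 25.9%), and introns beyond the twentieth stand below it. The sequence share includes short introns with little room for a peak.

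The last intron of the transcript held 13.0%, 15.1%, 13.3% and 12.8% of the peaks, beside 14.5% of later-intron sequence. The highest intron numbers came from genes of very many exons: intron 84 of 97 of Hmcn2, a hemicentin of the extracellular matrix (Ezh2m+/p+ maternal, fold 26.8), intron 70 of 88 of Dync2h1, the heavy chain of the ciliary dynein 2 (Ezh2m-/p+ maternal, fold 26.0), intron 92 of 92 of Dnah8, an axonemal dynein heavy chain (Ezh2m+/p+ paternal, fold 108), and intron 100 of 108 of Ryr1, the calcium release channel of skeletal muscle (Ezh2m-/p+ paternal, fold 5.91). These introns were short, between 2.35 and 6.52 kb.

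Along the intron, peaks lay toward the middle in each list. When introns were cut into 3 equal parts, the middle part held the centres of 41.2%, 40.05%, 39.9% and 39.2% of the peaks, against 28.0%, 28.5%, 30.4% and 29.2% in the part nearest the start of the gene. A peak must keep clear of exons to carry the annotation, which lowers both outer shares by construction. The nearest edge of the intron was a median of 7.74, 6.92, 6.82 and 7.40 kb away, and the nearest annotated start site 31.3, 29.8, 33.05 and 35.9 kb. A peak covered a median of 5.12 to 6.71% of its intron.

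Host genes were long. Peaks lay in genes with a median length of 225, 211, 221 and 243 kb in the Ezh2m+/p+ maternal, Ezh2m-/p+ maternal, Ezh2m+/p+ paternal and Ezh2m-/p+ paternal lists, in introns with a median length of 43.0, 38.0, 37.9 and 40.1 kb. A base of later-intron sequence lies in a gene with a median length of 148 kb, while the median over genes with such an intron, each counted once, is 19.4 kb. Genes over 100 kb held 79.4%, 75.4%, 74.2% and 75.2% of the peaks, beside 61.2% of later-intron sequence. Peaks in first introns lay in shorter genes (128, 129, 148 and 150 kb) but in longer introns (56.0, 59.1, 62.0 and 65.3 kb).

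Per length, the peaks were most frequent in genes of 250 to 500 kb and not in the longest ones. In these genes 2.48, 3.50, 6.29 and 7.27 peaks were listed per Mb of later-intron sequence in the Ezh2m+/p+ maternal, Ezh2m-/p+ maternal, Ezh2m+/p+ paternal and Ezh2m-/p+ paternal lists. In genes under 50 kb the values were 0.539, 1.17, 2.12 and 2.45 per Mb, and in the 59 genes over 1 Mb they were 1.14, 1.98, 3.40 and 5.69 per Mb. Short introns leave little room for a peak that touches no exon, so the values were also taken over introns of 10 kb or more. In genes under 50 kb they then rose to 1.24, 2.79, 4.38 and 5.20 per Mb, still below the 2.69, 3.68, 6.64 and 7.73 per Mb of genes of 250 to 500 kb. With this limit the Ezh2m-/p+ maternal list had its highest value, 4.04 per Mb, in genes of 100 to 250 kb.

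**Figure D2:**
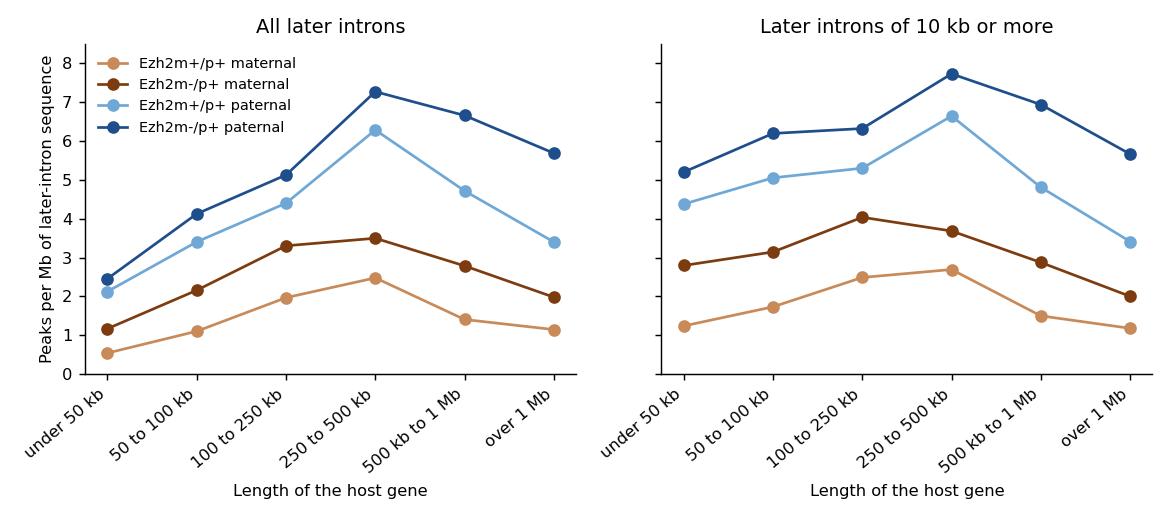
Later-intron H3K27me2 peaks per Mb of later-intron sequence (y axis) by length of the host gene (x axis) in the 4 lists, over all later introns (left) and over those of 10 kb or more (right). The lines rise up to genes of 250 to 500 kb, or 100 to 250 kb for the Ezh2m-/p+ maternal list on the right, and fall again in genes over 500 kb.

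Most host genes coded for proteins (92.7%, 90.0%, 87.2% and 87.4% of the peaks), and most others were lincRNA genes. By chromosome, later-intron peaks per Mb of later-intron sequence ranged on the autosomes from 0.884 on chromosome 3 to 2.45 on chromosome 11 in the Ezh2m+/p+ maternal list, and from 1.16 on chromosome 10 to 8.89 on chromosome 1 in the Ezh2m+/p+ paternal list. Chromosome 1 carried 551 Ezh2m+/p+ paternal and 542 Ezh2m-/p+ paternal later-intron peaks, 16.7% and 13.3% of their lists, beside 80 and 179 maternal ones, 6.61% and 8.66%. On the X chromosome 6, 18, 69 and 90 peaks were listed, or 0.171, 0.512, 1.96 and 2.56 per Mb. The covered share of the X chromosome was 13.1%, 20.8%, 1.13% and 1.89% in the authors' table.

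Several peaks in 1 gene were common, above all in the paternal genome. The Ezh2m+/p+ maternal peaks lay in 811 host genes, of which 207 (25.5%, interval 22.6 to 28.6%) held 2 or more. With a fold over 10 the share was 15.8%. In the Ezh2m-/p+ maternal list these were 371 of 1235 genes (30.04%, 27.5 to 32.7%), in the Ezh2m+/p+ paternal list 552 of 1264 (43.7%, 41.0 to 46.4%) and in the Ezh2m-/p+ paternal list 671 of 1480 (45.3%, 42.8 to 47.9%). Genes with 10 or more peaks numbered 0, 11, 56 and 64. Genes with several peaks held 50.1%, 58.2%, 78.5% and 80.1% of all later-intron peaks.

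Longer genes held more peaks: hosts with 1 peak had median lengths of 131, 106, 74.8 and 67.8 kb, and hosts with 5 or more 478, 474, 307 and 349 kb. Neighbouring peaks of 1 gene were a median of 38.0 and 31.4 kb apart in the maternal lists, and 8.40 and 8.80 kb apart in the paternal lists. Gaps under 5 kb were 11.25% and 15.1% of those in the maternal lists, and 39.1% and 38.0% in the paternal lists. When peaks less than 5 kb apart were counted as 1, the share of host genes with 2 or more was 36.3% and 38.5% in the paternal lists and 26.96% in the Ezh2m-/p+ maternal list.

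Windows of 1 Mb with 20 or more paternal peaks of any annotation in both genotypes, of which there were 201, contained 48.9% and 40.7% of paternal later-intron peaks, beside 4.21% and 4.59% of maternal ones. The windows were chosen by their paternal peaks, so a higher paternal share follows from the choice, and no windows were chosen by maternal peaks. Outside these windows, which were chosen after the data had been seen, the share of paternal host genes with 2 or more peaks was 39.4% for Ezh2m+/p+ and 43.1% for Ezh2m-/p+.

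Fhit, a diadenosine triphosphatase gene at a common fragile site (chr14:9550092-11162035, minus strand, 1612 kb), had 7 later-intron peaks in the Ezh2m+/p+ maternal list, 34 in the Ezh2m-/p+ maternal list and none in either paternal list. The 34 peaks lay in 5 introns, 15 of them in intron 2 of 551 kb, and covered 6.29% of its later introns, against 1.31% in the Ezh2m+/p+ maternal list. Of the 7 Ezh2m+/p+ peaks, 5 overlapped a Ezh2m-/p+ peak. Immp2l, a mitochondrial inner membrane peptidase gene (chr12:41024090-41955588, plus strand), held 2, 21, 0 and 0 peaks in the Ezh2m+/p+ maternal, Ezh2m-/p+ maternal, Ezh2m+/p+ paternal and Ezh2m-/p+ paternal lists. None of these overlapped the other maternal list, in which few peaks of any gene recurred. In Cdkal1, a tRNA methylthiotransferase gene (chr13:29191746-29855674, minus strand), the numbers were 9, 18, 0 and 0, likewise without overlap between genotypes. Ptprg, a receptor-type tyrosine phosphatase gene (chr14:11553532-12242041, plus strand), held 5, 12, 0 and 0 peaks. Fhit and Ptprg lie near each other on chromosome 14, so their counts do not come from separate parts of the genome. These 4 genes were picked for their high counts in the Ezh2m-/p+ maternal list, which favours their direction. Fhit and Cdkal1 were also among the leading hosts of the Ezh2m+/p+ maternal list. The Ezh2m-/p+ maternal list as a whole held 1.71 times as many later-intron peaks as the Ezh2m+/p+ maternal list.

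Dennd1a, an exchange factor gene for Rab35, held 9, 8, 0 and 0 peaks in the same order of lists, and Snx29, a sorting nexin gene, 8, 6, 0 and 0. Dscaml1, which encodes a neuronal cell adhesion molecule, held 0, 12, 1 and 6 peaks. Among the leading maternal hosts only Dscaml1 and Rbms3, described below, also had paternal later-intron peaks.

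The leading paternal hosts held no maternal peak of any annotation, with the exception of Hdac9. Ptprd, a receptor-type tyrosine phosphatase that organizes synapses (chr4:75941238-78211961, minus strand, 2271 kb), held 0, 0, 51 and 97 later-intron peaks, and Rgs7, a regulator of G protein signalling (chr1:175059087-175492500, minus strand, 433 kb), 0, 0, 56 and 44. The peaks of Rgs7 covered 35.6% of its later introns in the Ezh2m+/p+ and 44.7% in the Ezh2m-/p+ paternal list, and 49 of the 56 overlapped the list of the other genotype. In Ptprd 33 of 51 and 30 of 97 peaks did. Rabgap1l held 0, 0, 33 and 37 peaks, Fmn2, a formin gene known for its role in positioning the oocyte spindle, 0, 0, 31 and 26, Ank2, the gene of ankyrin-B, 0, 0, 31 and 29, and Cntn4, an adhesion gene of the contactin family, 0, 0, 21 and 37. Rgs7 and Fmn2 are near neighbours on chromosome 1, so their counts come from 1 stretch of it. Later-intron peaks were only part of the peaks in some of these genes: the whole of Ank2 held 79 and 71 paternal peaks, and Rabgap1l 91 and 87.

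Hdac9, a class IIa histone deacetylase gene (chr12:34047580-34917095, minus strand, 870 kb), was shared by both parental genomes, with 2, 6, 23 and 34 peaks. They lay in different parts of the gene. Intron 3, of 299 kb, contained 17 Ezh2m+/p+ paternal and 25 Ezh2m-/p+ paternal peaks. Nearer to the start than to the end of the gene lay 19 and 28 paternal peaks, against 0 of 2 and 1 of 6 maternal peaks. No maternal peak of Hdac9 overlapped a paternal one. In Ptprd 44 of 51 and 76 of 97 paternal peaks lay nearer to the end of the gene.

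**Figure D3:**
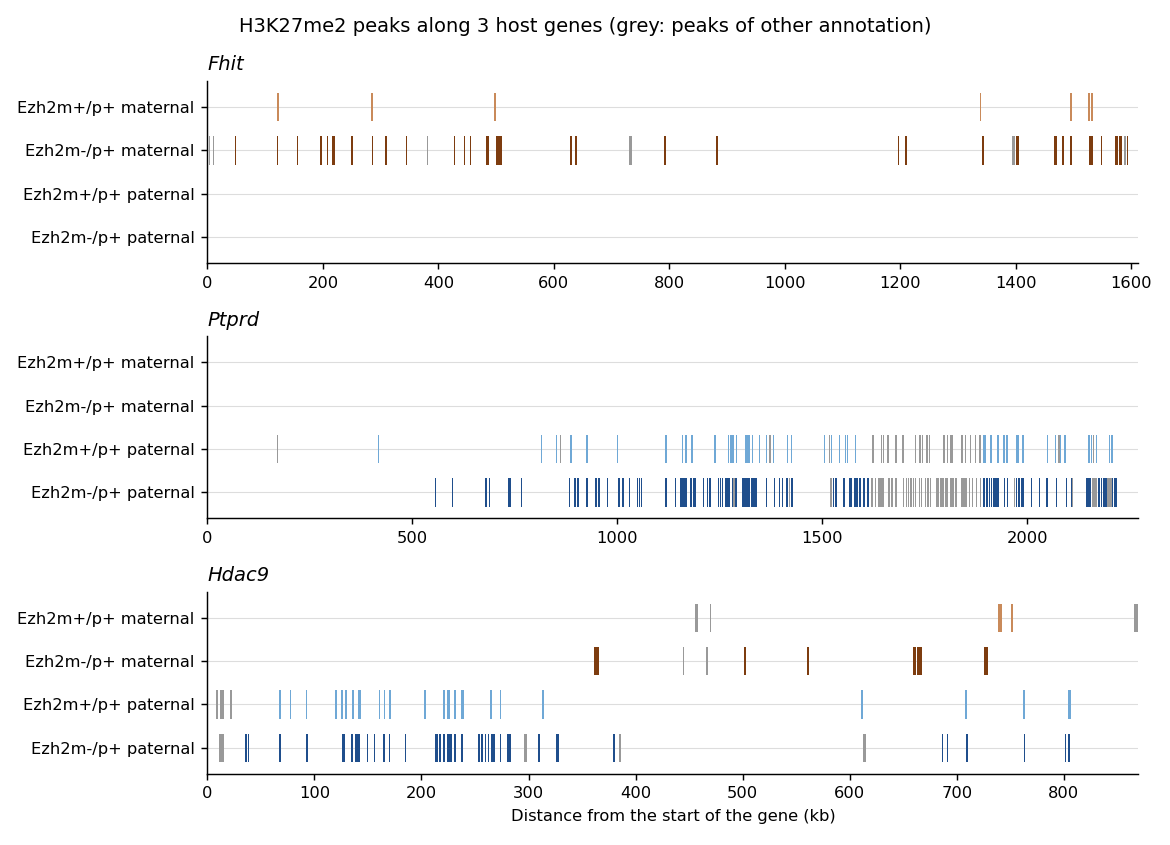
H3K27me2 peaks along Fhit, Ptprd and Hdac9 by distance from the start of the gene (kb, x axis), with 1 row per list. Coloured bars are later-intron peaks of the gene and grey bars peaks of other annotation; Fhit is empty in both paternal lists, Ptprd in both maternal lists, and Hdac9 holds paternal peaks mainly toward its start and maternal peaks farther along.

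Of 3058 genes with a later-intron peak in any list, 94 had one in all 4 lists and 1731 in exactly 1 list. Genes of all 4 lists had a median length of 388 kb, and genes of 1 list 73.5 kb. Hosts of maternal peaks only numbered 1237, hosts of paternal peaks only 1411, and hosts of both 410. Ranked by their lowest count over the 4 lists, the first of the genes found in all of them were Gm37240, a gene model of 1391 kb that spans other genes such as Fbxw7 (5, 5, 21 and 32 peaks), Ebf1, a transcription factor of B cell development (5, 7, 7 and 7), Sdk1, a synaptic adhesion gene (6, 6, 5 and 8), Rbms3, an RNA-binding protein gene (8, 4, 4 and 5), and Prkca, the gene of protein kinase C alpha (4, 4, 4 and 6). Arhgap26, a GTPase-activating protein gene, held 3, 3, 9 and 11 peaks, Babam2, of a BRCA1 complex, 5, 9, 3 and 3, and Trappc9, of a vesicle tethering complex, 3, 6, 5 and 5. Tns3, a tensin gene, held 5, 6, 3 and 4, and Pde4d, a cAMP phosphodiesterase gene, 3, 4, 4 and 6. No later-intron peak of these 10 genes overlapped a peak of the other parental genome, and under 1% of all peaks did.

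**Figure D4:**
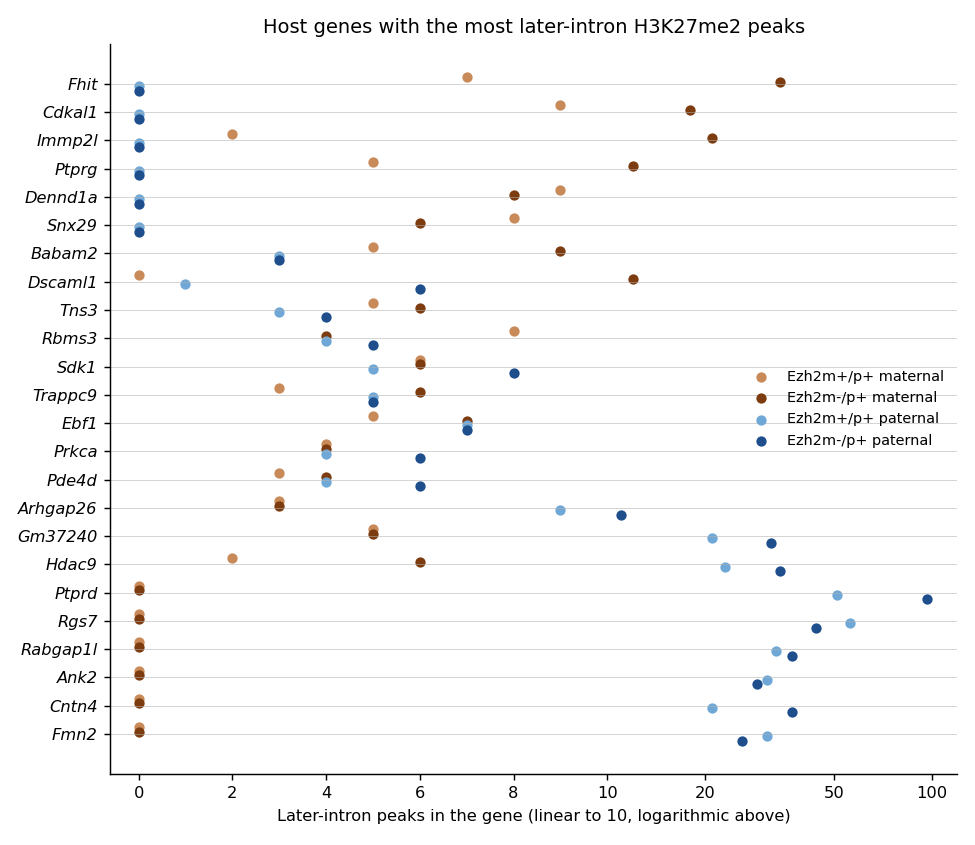
Number of later-intron H3K27me2 peaks (x axis, linear to 10 and logarithmic above) in the host genes with the most peaks of each list and in 10 genes with peaks in all 4 lists (y axis). The genes at the top, such as Fhit and Cdkal1, have 0 paternal peaks, and those at the bottom, such as Ptprd and Rgs7, have 0 maternal peaks.

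Recurrence between genotypes was then taken at 3 levels, first for the peaks themselves. In the maternal genome 122 of 1211 Ezh2m+/p+ peaks (10.1%, interval 8.503 to 11.9%) overlapped any peak of the Ezh2m-/p+ list by at least 1 bp, beside 9.47% of all Ezh2m+/p+ maternal peaks. Of the Ezh2m-/p+ maternal later-intron peaks 123 of 2068 did (5.95%, 5.01 to 7.05%), beside 5.78% of the whole list. Both shares thus lay near those of their lists. In the paternal genome 2081 of 3307 Ezh2m+/p+ peaks (62.9%, 61.3 to 64.6%) overlapped the Ezh2m-/p+ list, beside 66.1% of all Ezh2m+/p+ paternal peaks, and 1677 of 4073 Ezh2m-/p+ peaks (41.2%, 39.7 to 42.7%) overlapped the Ezh2m+/p+ list, beside 45.7%. The paternal shares of later-intron peaks lay below those of their lists and close to those of distal intergenic peaks (63.5% and 42.7%), whereas promoter peaks overlapped in 70.8% and 52.9% and exon peaks in 71.2% and 52.2%. First-intron peaks overlapped in 66.3% and 44.1%. No test was applied to these differences, since neighbouring peaks are not independent. The level of recurrence depended on the overlap asked for: with at least 50% of both peaks, the later-intron shares were 5.12%, 2.998%, 29.1% and 22.9% in the Ezh2m+/p+ maternal, Ezh2m-/p+ maternal, Ezh2m+/p+ paternal and Ezh2m-/p+ paternal lists, beside 4.94%, 2.96%, 31.4% and 24.6% of all peaks. First-intron peaks then had 27.8% and 21.8% in the paternal lists, below later-intron peaks and not above them. Among peaks with a fold over 10 the later-intron shares were 6.53% and 2.33% in the maternal and 44.1% and 35.8% in the paternal lists. The shares over all peaks were not taken at this setting.

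The levels of intron and gene contain that of position, so their shares had to be at least as high, and long genes are shared more easily. Of the Ezh2m+/p+ maternal later-intron peaks 61.2% lay in a host gene that also held a Ezh2m-/p+ maternal later-intron peak, 39.1% in the same intron of the same transcript, and 9.001% overlapped such a peak. The Ezh2m-/p+ maternal values were 47.8%, 26.9% and 5.37%. In the paternal genome the values were 87.8%, 74.1% and 50.5% for Ezh2m+/p+ and 82.3%, 67.3% and 38.6% for Ezh2m-/p+. As genes, the genotypes shared 399 maternal hosts, 49.2% of those of Ezh2m+/p+ and 32.3% of those of Ezh2m-/p+, and 923 paternal hosts, 73.0% and 62.4%. Hosts with 5 or more peaks were shared in 24 of 25 and 46 of 52 cases in the maternal and 149 of 150 and 190 of 193 cases in the paternal lists. Long genes with many peaks have more chances to be shared, and these counts were not adjusted for it.

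**Figure D5:**
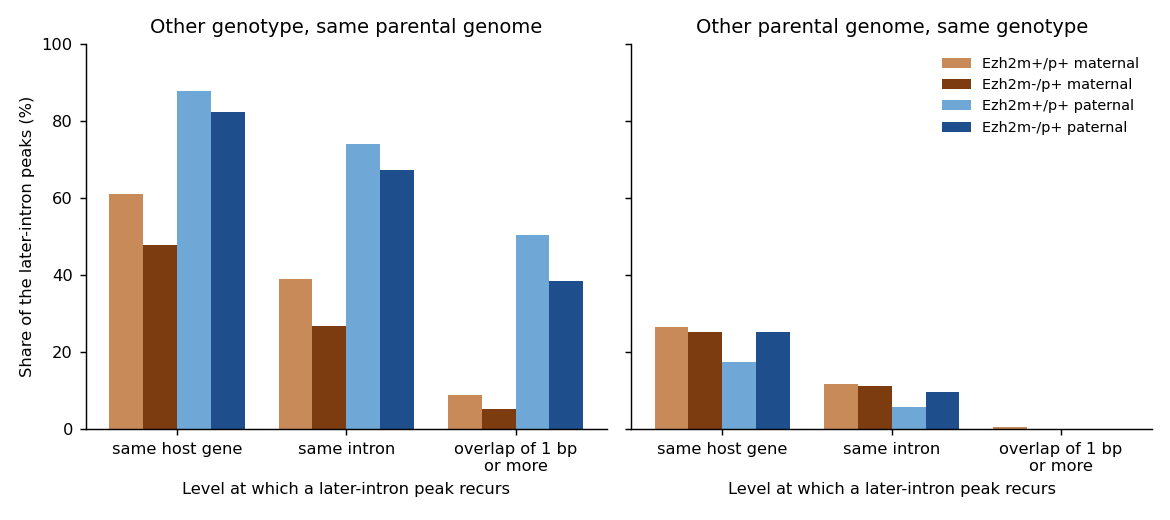
Share of later-intron H3K27me2 peaks (%, y axis) that recur in the same host gene, in the same intron or by overlap of at least 1 bp with a later-intron peak (x axis) of the list of the other genotype (left) or of the other parental genome (right). The levels are nested, so the shares fall from gene to position; by position 50.5% and 38.6% of the paternal and 9.001% and 5.37% of the maternal peaks recur between genotypes, and under 1% between parental genomes.

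Host by host, the count of later-intron peaks was higher in the Ezh2m-/p+ list for 991 of 1647 maternal hosts, lower for 492 and equal for 164. Of 1821 paternal hosts it was higher for 922, lower for 545 and equal for 354. The Ezh2m-/p+ lists were longer throughout, by 1.67 times for all maternal and 1.28 times for all paternal peaks, and later-intron peaks differed by nearly the same factors, 1.71 and 1.23. The longer Ezh2m-/p+ lists came from the libraries listed with fewer reads but from the genomes with more coverage.

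Between the parental genomes of the same zygotes almost no peak recurred. Overlaps of at least 1 bp with the other parental genome were found for 7 of 1211 Ezh2m+/p+ maternal peaks (0.578%, 0.280 to 1.19%), 3 of 2068 Ezh2m-/p+ maternal peaks (0.145%, 0.0493 to 0.426%), 9 of 3307 Ezh2m+/p+ paternal peaks (0.272%, 0.143 to 0.516%) and 4 of 4073 Ezh2m-/p+ paternal peaks (0.0982%, 0.0382 to 0.252%). Over all peaks of these lists the shares were 0.418%, 0.416%, 0.14% and 0.18% in the same order. These lay within the intervals of the later-intron peaks in 3 lists and just below the interval in the Ezh2m+/p+ paternal list. The counts are small and moved with the settings. With a length over 2000 bp the later-intron shares were 0.106%, 0.0%, 0.102% and 0.0%, and those of all peaks were not taken. With a reciprocal overlap of at least 50% the later-intron shares were 0.0826%, 0.0%, 0.0302% and 0.0%, beside 0.0522%, 0.0521%, 0.0168% and 0.0219% of all peaks. By host gene, which contains the sharing of a position, 26.5% of the Ezh2m+/p+ maternal, 25.1% of the Ezh2m-/p+ maternal, 17.4% of the Ezh2m+/p+ paternal and 25.1% of the Ezh2m-/p+ paternal later-intron peaks lay in a gene with a later-intron peak of the other parent. Within the same intron it was 11.7%, 11.3%, 5.90% and 9.58%.

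The overlap of largest fold lay in the last intron of Adk (chr14:21440401-21442599, Ezh2m-/p+ paternal, fold 110), where the maternal Ezh2m-/p+ peak at chr14:21439401-21440799 had a fold of 32.9 and shared 399 bp with it. In the Ezh2m+/p+ zygotes a maternal peak (chr14:21436601-21440599, fold 8.88) ended just before the paternal one began (chr14:21440601-21442399, fold 9.03). At this place all 4 lists thus had a peak, the maternal ones on the lower and the paternal ones on the higher coordinates. The next 4 overlaps, in 4930455D15Rik, Gm33497, Pde6a and Slc11a2, had folds of 40.4 to 48.1 and shared 199 to 999 bp. In Pde6a, a rod phosphodiesterase gene, and Slc11a2, the gene of the iron transporter DMT1, the maternal peak was annotated to a 3′ UTR.

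Further groups of host genes were followed by name. Any gene with an intron after the first held a later-intron peak in 3.31% of cases in the Ezh2m+/p+ maternal, 5.03% in the Ezh2m-/p+ maternal, 5.14% in the Ezh2m+/p+ paternal and 6.01% in the Ezh2m-/p+ paternal list, and a gene over 500 kb in 34.7%, 42.3%, 42.7% and 52.3%. Of 16 genes of enzymes and partners that set or remove H3K27 methylation, with a median length of 35.4 kb, none held a later-intron peak in the Ezh2m+/p+ maternal, Ezh2m+/p+ paternal or Ezh2m-/p+ paternal list. In the Ezh2m-/p+ maternal list only Aebp2, a PRC2 accessory subunit, held 1. Ezh2, Eed and Suz12, the core of PRC2, had no peak of any annotation in their gene bodies in any list, and Ezh1 had 1 in the Ezh2m+/p+ maternal list, outside its later introns.

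Of 36 synaptic and neuronal adhesion genes, with a median length of 1068 kb, 14, 14, 20 and 22 held later-intron peaks (38.9%, 38.9%, 55.6% and 61.1%). Per Mb of their later introns the lists had 0.733, 1.37, 6.25 and 9.56 peaks, against 1.47, 2.52, 4.03 and 4.96 per Mb over all genes and 1.298, 2.46, 4.18 and 6.26 per Mb in genes over 500 kb. Without Ptprd and Cntn4, both leading paternal hosts, the other 34 genes had 0.800, 1.50, 4.32 and 5.78 per Mb. Of these, only the Ezh2m+/p+ paternal value lay above that of genes over 500 kb. Both genes were left out for their counts, so lower paternal values follow from the choice. Ptprd alone gave 51 of its 196 Ezh2m+/p+ and 97 of its 300 Ezh2m-/p+ paternal peaks. Negr1, a cell adhesion gene of the IgLON family, added 0, 0, 18 and 21, Rbfox1, a neuronal splicing factor, 0, 0, 11 and 22, Tenm2, a teneurin, 0, 1, 12 and 19, and Astn1, an astrotactin, 0, 0, 18 and 13. Magi2, a synaptic scaffold gene, showed the maternal pattern with 3, 8, 0 and 0 peaks, as did Pcdh15, a protocadherin of hair cells, with 3, 6, 0 and 0.

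Among 25 ion channel genes 7, 9, 9 and 9 held later-intron peaks, or 28% to 36% of a group with a median length of 417 kb. Per Mb of their later introns the lists had 1.37, 2.20, 5.50 and 5.91 peaks, with 10, 16, 40 and 43 peaks in all. Kcnh1, a voltage-gated potassium channel gene, gave 0, 1, 20 and 13 of these, and Cacna2d3, an auxiliary calcium channel subunit gene, 0, 5, 8 and 10. Without Kcnh1 the other 24 genes had 1.43, 2.14, 2.86 and 4.29 per Mb, below all genes in each list, whereas with it the paternal values lay above them. Kcnh1 was left out for its count, whereas all genes kept their leading hosts, so lower paternal values follow from the choice. Of 10 genes at common fragile sites 6, 7, 5 and 5 held later-intron peaks, and per Mb the lists had 1.78, 5.21, 1.36 and 1.71. The Ezh2m-/p+ maternal value, 5.21 per Mb against 2.52 over all genes, came from Fhit with 34 and Immp2l with 21 of 73 peaks. Without these genes, both named above as leading hosts of that list, the other 8 had 1.39, 1.56, 1.65 and 2.09 per Mb, below all genes in each list. Fhit and Immp2l were likewise left out for their counts, so the lower Ezh2m-/p+ maternal value follows from the choice. Wwox, an oxidoreductase gene, held 7, 6, 2 and 3 peaks, Dab1, an adaptor of reelin signalling, 5, 2, 5 and 7, and Macrod2, a gene of 1998 kb, none in any list. Some genes, such as Dlg2 and Lrp1b, belong to both this group and the synaptic one.

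In base composition, later-intron peaks were a little richer in G and C than the introns around them. Their median GC content was 44.9%, 45.1%, 43.9% and 43.3% in the Ezh2m+/p+ maternal, Ezh2m-/p+ maternal, Ezh2m+/p+ paternal and Ezh2m-/p+ paternal lists, and that of the whole introns 43.5%, 43.3%, 42.7% and 42.4%. Peak by peak, the GC content exceeded that of the host intron in 76.3%, 78.4%, 66.7% and 63.8% of cases, by a median of 1.33, 1.67, 0.970 and 0.811 percentage points. CpG density followed the introns more closely, with medians of 9.01, 9.003, 8.01 and 7.78 per kb in the peaks and 8.98, 8.98, 8.26 and 8.01 per kb in the introns.

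Repeats took less of the peaks than of their introns. The share of bases masked as repeats had medians of 19.1%, 17.8%, 19.2% and 19.9% in the peaks and 24.2%, 24.2%, 25.2% and 25.7% in the introns, and it was higher in the peak in only 30.2%, 28.3%, 32.6% and 32.9% of cases. First-intron peaks, with 21.1%, 19.5%, 20.6% and 20.9%, and distal intergenic peaks, with 22.7%, 21.9%, 24.3% and 24.9%, held more repeat sequence than later-intron peaks. Reads of low mapping quality, which repeats give, were removed before the peaks were called, and the part of this step in the difference was not tested.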

How the data were processed

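H3K27me2 ULI-NChIP-seq libraries and inputs of Ezh2m+/p+ and Ezh2m-/p+ zygotes were used, 1 of each per genotype. Reads went through Trimmomatic 0.38 (trimming), Bowtie2 (alignment, mm10), SAMtools (mapping quality), Picard (duplicates) and SNPsplit (assignment to C57BL/6 or PWK). The authors then called peaks against the input with SICER and annotated those over 1000 bp with a fold over 5 with ChIPseeker. By the listed widths, the shortest later-intron peaks measured 999 bp in each list. The deposited lists give for each peak a fold (a linear ratio of H3K27me2 to input reads), its width and its annotation. With their own scripts the authors also computed, per chromosome and parental genome, what fraction lay under reads; medians over autosomes were taken, and its 2 groups of oocyte rows were not used.

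Members were the peaks annotated to an intron other than intron 1. The members and gene lists were chosen with earlier results of these data known. Host genes, lengths and introns came from GENCODE vM21 through the annotated transcript, and sequence, CpG and soft-masked repeats from GRCm38.p6. The reference for introns was the longest transcript of each gene. Overlap meant at least 1 bp. Shares carry 95% Wilson intervals. Named were the 5 hosts with most peaks per list, 10 hosts of all 4 lists, and the peaks of largest fold, length and intron number. The parental overlaps of largest fold and the gene lists were named as well. Alternatives were autosomes only, a minimum length of 2000 bp, a minimum fold of 10, reciprocal overlap, base pairs, merging within 5 kb, the gene of the nearest start site and later-intron peaks of the other list only. Python 3.11.15, numpy 2.4.6, pandas 2.3.3, scipy 1.17.1, matplotlib 3.10.9 and pysam 0.24.0 were used. Overlap and interval functions were tested on simulated data.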

Additional observations from a re-analysis of the deposited data

Results flagged for a closer look

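For 2 shares the difference Ezh2m-/p+ minus Ezh2m+/p+ had opposite signs in the parental genomes, and neither difference was tested, since each genotype had 1 library. The share of peaks in introns after the first differed by 0.445 percentage points in the maternal and by -0.667 percentage points in the paternal lists, both less than the width of the intervals. The opposite signs were lost when only peaks over 2000 bp were kept (-1.16 maternal, -0.11 paternal) and by covered base pairs (-0.442 and -1.29). The share of later-intron peaks in host genes over 100 kb differed by -4.00 percentage points in the maternal and by 0.947 percentage points in the paternal lists. With only peaks over 2000 bp these differences were -1.44 and 3.73 percentage points.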

How the results depend on the processing

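No paired analysis was possible because each genotype had 1 library and no result comes from a test between samples, and no replicate could be left out. Of 124 values computed under alternatives for 24 shares, 67 stayed within the 95% interval of the reported value and 57 did not. The difference Ezh2m-/p+ minus Ezh2m+/p+ turned its sign for 5 of 62 values. For the share of peaks in later introns the maternal difference was -1.16 points with a length over 2000 bp and -0.442 by base pairs. For hosts with 2 or more peaks it was -0.298 (maternal) and -0.874 (paternal) with a length over 2000 bp, and for overlap between parental genomes 0.00120 (paternal) with a fold over 10. Values are given in the Ezh2m+/p+ maternal, Ezh2m-/p+ maternal, Ezh2m+/p+ paternal and Ezh2m-/p+ paternal lists unless fewer are named, and the cause of each shift was not tested. Overlap over all peaks was not taken under a changed fold, length or set of windows.

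With a fold over 10, the share of peaks in later introns was 22.4% and 22.6% in the maternal lists. The share of hosts with 2 or more peaks was 15.8%, 25.9% and, for Ezh2m-/p+ paternal, 42.0%. Overlap between genotypes was 6.53%, 2.33%, 44.1% and 35.8%, and overlap with the other parental genome 0.105% for Ezh2m+/p+ paternal.

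With a length over 2000 bp, the share in later introns was 19.8% (Ezh2m-/p+ maternal), 14.9% and 14.8% (paternal), and that in intron 2 or 3 was 47.2%, 50.5% and 48.2% in these lists. Genes over 100 kb held 79.4%, 76.4% and 80.1%, and hosts with 2 or more peaks were 25.7%, 35.8% and 35.0% in the same lists. Overlap between genotypes was 7.497% (Ezh2m+/p+ maternal), 72.4% and 35.5% (paternal), and that with the other parental genome 0.106%, 0.0%, 0.102% and 0.0%.

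With a reciprocal overlap of at least 50%, overlap between genotypes was 5.12%, 2.998%, 29.1% and 22.9%, and that between parental genomes 0.0826%, 0.0%, 0.0302% and 0.0%. Counting later-intron peaks of the other list only gave 50.5% and 38.6% for the paternal genotypes. By covered base pairs, later introns held 20.2% (Ezh2m-/p+ maternal), 15.7% and 14.4% (paternal). The gene of the nearest start site in place of the host put 63.8%, 58.9%, 59.8% and 61.0% of peaks in genes over 100 kb. Merging peaks within 5 kb gave 26.96% (Ezh2m-/p+ maternal), 36.3% and 38.5% (paternal) of hosts with 2 or more.

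A further pair of alternatives was chosen after seeing the data. Without peaks that lay within the first intron of any transcript, later introns held 17.2%, 17.4%, 14.8% and 14.4%, and 27.5% of Ezh2m-/p+ maternal hosts had 2 or more peaks. Without the dense 1 Mb windows, 39.4% of Ezh2m+/p+ paternal hosts had 2 or more, and paternal overlap between genotypes was 48.7% and 31.2%.

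The precision of every share is limited by the number of peaks in 1 library. The peak lists give no read depth, and an absent peak cannot be told apart from one below the calling threshold.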
